A study of Mus musculus with 22 samples.

Results

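Zic1, Zic2, Zic4 and Zic5 belong to the mouse Zic family of zinc-finger transcription factors. They were followed here as sites of H3K27me3 in retinas of embryonic day 18.5 (E18.5) that lacked Jarid2. Members were the peaks to which the deposited annotation gave 1 of these 4 gene names. Of 19034 peaks in the deposited table, 18381 of them autosomal, 3 carried such a name: 1 for Zic1, 1 for Zic4 and 1 for Zic5. No row carried the name Zic2, so 3 of the 4 member genes, of 12370 genes in the table, had a peak.

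The study mapped H3K27me3 by CUT&RUN, in which an antibody tethers a nuclease that releases the DNA around the marked nucleosomes. The conditional knockout group (cKO) held 5 animals, each Jarid2 fl/fl with Rx-cre. The control group also held 5 animals. Control replicate 1 was Jarid2 fl/+ with Rx-cre, control replicate 3 was Jarid2 fl/fl without Cre, and control replicates 2, 4 and 5 were Jarid2 fl/+ without Cre. All animals were C57BL/6 embryos, and the protocol describes Cre induction with tamoxifen at 75 µg per g on E10.5. The Cre is driven by a promoter of retinal progenitors, so cells of other origin in the retina keep Jarid2, and each sample pooled both retinas of 1 animal. Batch 1 held 2 cKO animals (replicate 1 female, replicate 2 male) and 2 control animals (replicate 1 male, replicate 2 female). In batch 2 all animals were male, 3 cKO and 3 control, each with 2 technical duplicates whose counts were summed. Reads in peaks ran from 1688368 (control replicate 2) to 2864080 (control replicate 3) per animal. H3K27me3 does not measure the deletion, so these counts do not check the genotype labels. In a whole retina, fewer cells carrying the mark and less mark per cell cannot be told apart.

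H3K27me3 is the repressive histone mark written by Polycomb repressive complex 2 (PRC2), and Jarid2 is an accessory subunit that helps bring PRC2 to its targets. PRC2 marks broad domains over developmental regulators in cells that do not use them. Zic proteins act in the neural tube, cerebellum and neural crest and are relatives of the Gli and Glis factors. The genes lie in linked pairs, Zic1 with Zic4 and Zic2 with Zic5. In the eye, Zic2 is known for directing ganglion cell axons to stay on their own side of the brain at the optic chiasm.

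The deposited counts were read against the promoter sequences of the members, shown because they mark where each peak lies relative to an annotated start. RefSeq windows of 300 bases (GRCm38.p6, from 250 bases before to 50 bases after a start) were matched for 3 of the 4 members. Each is printed 5′ to 3′ on the strand of its gene, with every CpG in capitals. Zic1 is read from the minus strand (chr9:91365719-91366018), Zic4 from the plus strand (chr9:91368722-91369021) and Zic5 from the minus strand (chr14:122465609-122465908). The starts of the Zic1 and Zic5 windows are the ends of the gene bodies used here. The Zic4 window belongs to an internal start, 3341 bp inside the RefSeq body of Zic4, and other starts of Zic4 were not examined.
Zic1: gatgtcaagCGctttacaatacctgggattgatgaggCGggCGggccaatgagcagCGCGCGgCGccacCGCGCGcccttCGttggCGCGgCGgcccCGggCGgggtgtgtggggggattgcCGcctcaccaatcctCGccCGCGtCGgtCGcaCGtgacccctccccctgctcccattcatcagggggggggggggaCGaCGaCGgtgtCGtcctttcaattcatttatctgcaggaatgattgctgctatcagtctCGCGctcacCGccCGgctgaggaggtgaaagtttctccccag
Zic4: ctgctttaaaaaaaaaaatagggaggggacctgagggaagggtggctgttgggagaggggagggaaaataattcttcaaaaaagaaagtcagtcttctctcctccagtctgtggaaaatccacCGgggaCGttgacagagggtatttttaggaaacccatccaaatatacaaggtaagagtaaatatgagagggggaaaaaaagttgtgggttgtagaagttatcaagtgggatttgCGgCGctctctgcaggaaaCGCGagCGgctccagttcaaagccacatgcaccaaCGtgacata
Zic5: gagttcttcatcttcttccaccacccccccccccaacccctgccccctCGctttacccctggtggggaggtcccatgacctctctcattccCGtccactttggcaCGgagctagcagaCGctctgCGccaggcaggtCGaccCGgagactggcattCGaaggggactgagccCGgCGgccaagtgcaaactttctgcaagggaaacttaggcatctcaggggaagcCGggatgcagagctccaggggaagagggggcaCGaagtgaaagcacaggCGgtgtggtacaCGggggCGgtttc
The Zic1 window held 31 CpG, at 65.3% G+C, and 10.6% of all 32851 promoter windows held as many. The Zic5 window held 15 CpG (34.6% of windows held as many) and the Zic4 window 8 (48.7%), against a median of 7. The Zic1 and Zic4 windows both lay wholly inside the peak assigned to Zic1. The Zic5 window lay outside every peak, 331 bp from the peak assigned to Zic5. CpG content is a description of these windows and was not related to the mark by any test.

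Zic1, which acts in cerebellar and dorsal neural development, carried one of the broadest H3K27me3 domains of the retina. Its peak (chr9:91365550-91422920, mm10) was 57371 bp wide, the 34th widest of 19034, where the median width was 2791 bp and 42 peaks were wider than 50 kb. Levels are given in CPM, the usual count scaled to the total of reads in peaks. The Zic1 peak had the 13th most reads, and its density, 32.2 CPM per kb, was at the 99.5th percentile of peaks. The deposited annotation calls it a Zic1 promoter peak. It overlapped only 219 bp of the Zic1 gene body (2.84% of the gene). It covered 100% of the RefSeq body of Zic4, the partner gene that is read in the other direction. It also covered 19428 bp of the long non-coding RNA gene Gm29478. The domain thus began at the Zic1 start and ran away from Zic1 through Zic4.

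The peak assigned to Zic4 (chr9:91358760-91360360) was 1601 bp wide and lay inside the Zic1 gene body, 5270 bp outside the RefSeq body of Zic4. The deposited annotation calls it a Zic4 promoter peak, at -2053 bp from a start. By that distance the start lies before the RefSeq body of Zic4, inside Zic1. Zic4 is deleted together with Zic1 in some patients with cerebellar malformation. The density of this peak was 4.14 CPM per kb, at the 30.7th percentile and below the median of 5.16. The values under the name Zic4 below therefore describe a faint site within the Zic1 body, before a Zic4 start of the deposited annotation. The mark over the RefSeq body of Zic4 is counted under Zic1. With peaks assigned by overlap with RefSeq gene bodies, Zic1 took 2 peaks and Zic4 took the broad one.

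The Zic5 peak (chr14:122466240-122473000) was 6761 bp wide and lay in the 9725 bp between Zic5, which acts in neural crest formation, and Zic2. It ended 581 bp short of the Zic5 gene body and 2383 bp short of Zic2, and covered 54.4% of the long non-coding RNA gene 2610035F20Rik. Its density was 14.9 CPM per kb, at the 91.1st percentile. No peak overlapped the body of Zic2 or of Zic5. On the far side of Zic2, 3031 bp away, a peak assigned to Gm10837 (chr14:122483360-122493330) covered the start of Pcca, a subunit gene of propionyl-CoA carboxylase, at 18.7 CPM per kb. Zic2 thus stood between peaks and in none. The level of H3K27me3 inside the Zic2 gene was not analysed here, because counts were given for peaks only.

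**Figure D1:**
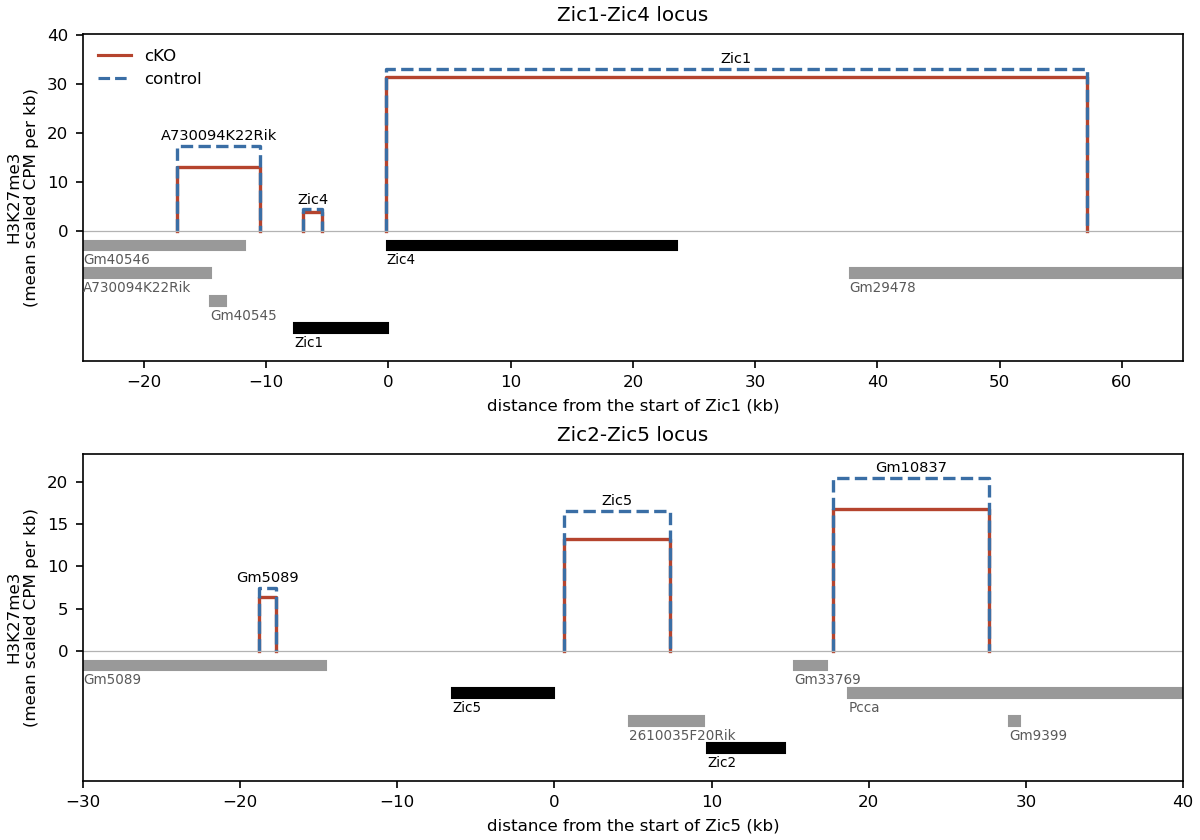
H3K27me3 peaks (outlines, mean scaled CPM per kb over 5 animals per group, cKO as solid and control as dashed lines) above RefSeq gene bodies (black for Zic genes), with distance in kb from the start of Zic1 (top) and Zic5 (bottom). The 57371 bp Zic1 peak covers all of Zic4, the Zic4 peak lies in Zic1, and the Zic5 peak lies between Zic5 and Zic2.

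Levels per kb over all animals ran in the order Zic1 (32.2 CPM per kb), Zic5 (14.9) and Zic4 (4.14), and the ranges of single animals did not overlap between them. As a check of the tissue, 3 of 7 regulators that retinal cells use had any peak, at a median of 4.33 CPM per kb (Pax6 4.33 and Lhx2 9.90 among them). Of 7 regulators of other tissues, 2 had a peak under their name, Gata4 at 28.3 and Myod1 at 12.3 CPM per kb, and no peak carried the name of the 4 Hox genes of the list or Cdx2. The density of the single Zic1 peak lay above the values of the genes of both lists. Gene values are taken over all peaks of a gene (4 for Gata4, 2 for Myod1), so single peaks of these genes may be denser. The median over all genes was 5.73.

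The comparison of genotypes asked where the mark, relative to the other peaks, differed between cKO and control. Of 3 member peaks, all of which passed the filter on low counts, 1 was lower in cKO (Zic5), 0 were higher, and Zic1 and Zic4 did not pass. Over all 16307 tested peaks, 7.38% were lower and 1.46% were higher in cKO at an adjusted p under 0.05 (quasi-likelihood test of edgeR). With peaks summed per gene, 8.29% of 11324 genes were lower and 1.48% were higher. Under scaling by the total count the lower peaks numbered 1013 and the higher ones 467, against 1204 and 238 with TMM factors. With DESeq2, 844 were lower and 32 higher. Each member gene had a single peak, so its gene value rests on the same reads as its peak.

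At Zic5, scaled CPM was 101, 92.2, 78.8, 92.7 and 84.2 in cKO replicates 1 to 5. It was 92.1, 131.5, 122, 111 and 105 in control replicates 1 to 5. Control replicate 1, the control that carried Cre and 1 floxed allele, lay among the cKO animals, and the other 4 controls lay above every cKO animal. Means were 89.7 ± 8.46 CPM in cKO and 112 ± 15.2 CPM in controls (SD, n = 5 each), from 179 to 336 reads per animal. The log2 fold change was -0.33 ± 0.089 (SE; 95% interval -0.51 to -0.14; adjusted p by edgeR = 0.0213), a change of -20.3%, and in 5 of 5 cKO animals the value was under the mean of the controls run in the same batch. Summed per gene, with scaling over genes, it was -0.34 ± 0.090 (adjusted p by edgeR = 0.0192). Permuting the genotypes within batches gave an exact two-sided p of 0.05 over 120 arrangements, of which the smallest possible p is 0.0167.

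The Zic5 call lay near the threshold. Summed per gene, it was lost on leaving out cKO replicate 3 (adjusted p by edgeR = 0.0732) or 5 (0.0568), or control replicate 2 (0.0509) or 3 (0.0698), and kept in the other 6 fits that left out 1 animal. At the level of the peak it was lost in 5 of these 10 fits, namely on leaving out cKO replicate 2 (0.0516), cKO replicate 3 (0.0766), or control replicate 2 (0.0708), 3 (0.0790) or 4 (0.0551). Without control replicate 1, which leaves only controls without Cre, the summed value was -0.43 (adjusted p by edgeR = 3.31e-04). The summed call was also lost without a batch term (0.0837), with the total count (0.0504) and with the first (0.0621) or second (0.0509) technical duplicate alone.

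Within batches, Zic5 averaged 96.5 CPM in cKO and 112 CPM in controls of batch 1 (n = 2 each), where the groups overlapped. In batch 2 it averaged 85.2 ± 7.00 CPM in cKO and 112 ± 8.41 CPM in controls (SD, n = 3 each), and the groups did not overlap. Fitted within batch 1 alone, the log2 fold change of the gene was -0.22 (adjusted p by edgeR = 0.613), and within batch 2 alone -0.42 (adjusted p by edgeR = 9.26e-04). The difference of the genotype effect between batches, -0.18 summed per gene, did not pass the threshold (edgeR interaction test, adjusted p = 0.999). That test called 2 of 16307 peaks, or 0.0123%, with 642 at an unadjusted p under 0.05, and DESeq2 also called 2.

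At Zic1, scaled CPM was 1990, 1952, 1719, 1722 and 1624 in cKO replicates 1 to 5, against 2241, 2050, 1810, 1802 and 1584 in control replicates 1 to 5. The groups overlapped over all animals, and every animal of batch 1 lay above every animal of batch 2. Means were 1801 ± 160 CPM in cKO and 1897 ± 253 CPM in controls (SD, n = 5 each), and batch differences are part of that SD. The fitted log2 fold change was -0.071 ± 0.066 (SE; 95% interval -0.21 to 0.066; adjusted p by edgeR = 0.596). With 3258 to 5003 reads per animal, counting gave an error of 1.59%, and animals of a group and batch varied by 5.32%. In batch 1 the means were 1971 CPM in cKO and 2145 CPM in controls (n = 2 each), without overlap, and in batch 2 they were 1689 ± 55.5 CPM in cKO and 1732 ± 128 CPM in controls (SD, n = 3 each), with overlap. Summed per gene, the genotype effect differed between batches by 0.11 (interaction test of edgeR, adjusted p = 0.999). The interval of the percent change ran from -13.4% to 4.66%, so a fall larger than 13.4% relative to the other peaks lies outside it. Counts are scaled to reads in peaks, so a fall shared by most peaks would not be seen in any fold change given here. Permuting the genotypes within batches gave an exact two-sided p of 0.2.

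At the peak assigned to Zic4, scaled CPM was 6.40, 6.51, 6.03, 5.79 and 6.58 in cKO replicates 1 to 5 and 5.97, 7.55, 7.24, 7.84 and 6.34 in control replicates 1 to 5. Control replicates 1 and 5 lay among the cKO animals. In 5 of 5 cKO animals, here and at Zic1, the value was under the mean of the controls of the batch. Means were 6.26 ± 0.34 CPM in cKO and 6.99 ± 0.80 CPM in controls (SD, n = 5 each). The log2 fold change was -0.17 ± 0.23 (SE; 95% interval -0.65 to 0.32; adjusted p by edgeR = 0.750), and permuting the genotypes gave an exact two-sided p of 0.133. In batch 1 the means were 6.45 CPM in cKO and 6.76 CPM in controls, and in batch 2 they were 6.13 CPM in cKO and 7.14 CPM in controls. Each animal held only 12 to 20 reads there, a counting error of 26.6%, so a difference of this size was not detectable at this depth.

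**Figure D2:**
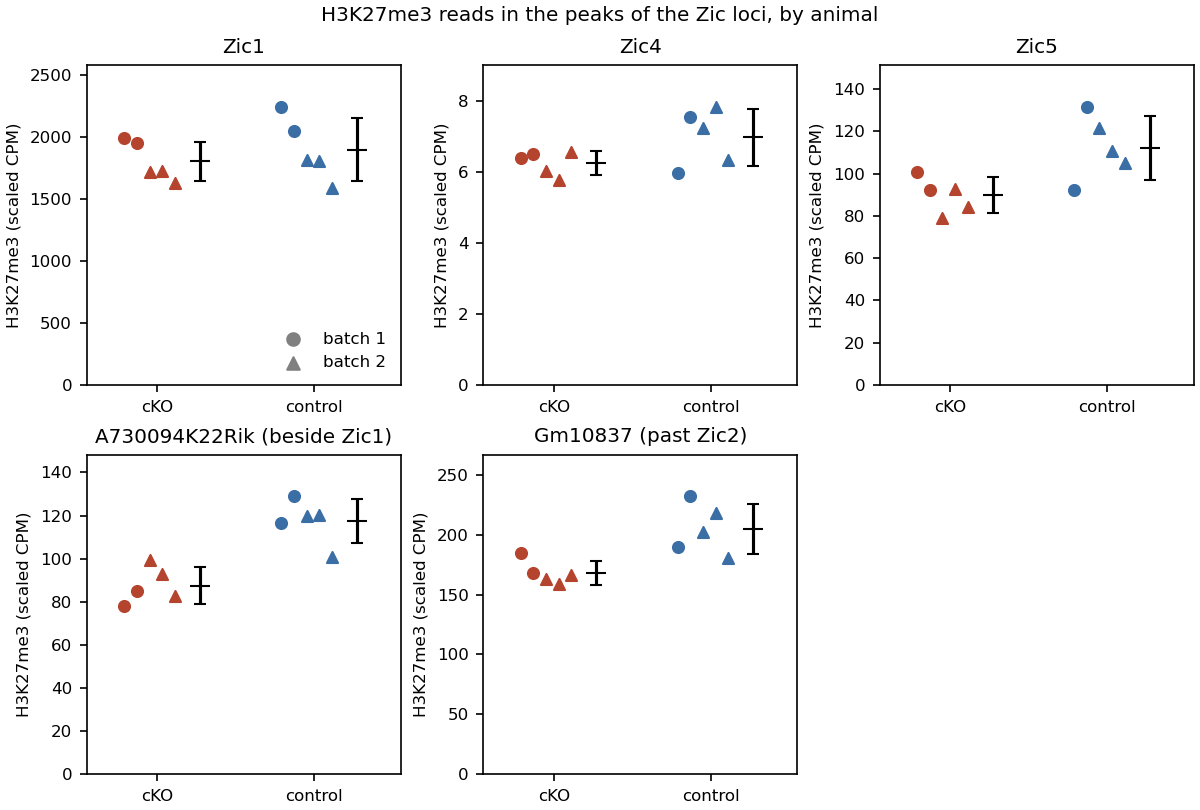
Scaled CPM of H3K27me3 in each animal for the 3 member peaks (top) and the 2 neighbouring peaks called lower (bottom). Neighbouring peaks that were not called are not drawn. The cKO animals are left of control, with circles for batch 1 and triangles for batch 2. Black lines give the mean and SD of 5 animals. At Zic5 the cKO mean is 89.7 and the control mean 112, and control replicate 1 at 92.1 lies among the cKO animals.

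The sites beside the pairs were read next. Within 100 kb of the Zic1-Zic4 peaks there was 1 other peak, and it was lower in cKO, beside 7.38% of all tested peaks lower. It was assigned to the long non-coding RNA gene A730094K22Rik (chr9:91348500-91355260) and began 2797 bp beyond the 3′ end of Zic1. Scaled CPM was 77.8, 85.2, 99.3, 92.7 and 82.8 in cKO replicates 1 to 5, against 117, 129, 119.8, 120.4 and 101 in control replicates 1 to 5. Every control lay above every cKO animal. The log2 fold change was -0.41 ± 0.080 (SE; adjusted p by edgeR = 0.00146). This call held in 22 of 23 alternative settings and was lost in batch 1 alone (-0.59, adjusted p by edgeR = 0.168), where 2 animals per group were fitted.

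Within 100 kb of the Zic5 peak there were 5 other peaks, of which 4 passed the filter, 1 was lower in cKO and 0 were higher. Over all tested peaks, 7.38% were lower and 1.46% were higher. The lower one was the Gm10837 peak past Zic2. Scaled CPM was 185, 168, 163, 159 and 166 in cKO replicates 1 to 5, against 190.2, 232, 203, 218 and 180.2 in control replicates 1 to 5. The highest cKO animal lay above the lowest control, and the other animals were separated by group. The log2 fold change was -0.28 ± 0.071 (SE; adjusted p by edgeR = 0.0120), which was lost without cKO replicate 2 (0.0505), without control replicate 4 (0.0559), without a batch term (0.0755) and in batch 1 alone (0.466). The peaks on the other side of Zic5 had log2 fold changes of -0.10, -0.23 and -0.20, none past the threshold, with 1 at an unadjusted p under 0.05.

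The linked pairs were compared within each animal, as the difference of log2 CPM between 2 peaks. Zic1 minus Zic4 was 7.97 ± 0.13 in cKO and 7.90 ± 0.26 in controls (SD, n = 5 each). The groups differed by 0.065 (exact two-sided permutation test within batches, p = 0.55, adjusted p = 0.6 over 3 pairs). This pair sets the broad domain against a faint peak, and its error is mostly that of the faint peak. Zic2 minus Zic5 could not be computed, since no peak carried the name Zic2. Other contrasts were chosen after their values were seen. Zic5 minus Gm10837, the peaks on either side of Zic2, was -0.90 ± 0.11 in cKO and -0.87 ± 0.13 in controls, a difference of -0.037 (exact permutation p = 0.6, adjusted p = 0.6). Zic5 minus Zic1 was -4.31 ± 0.095 in cKO and -4.07 ± 0.30 in controls, a difference of -0.24 (exact permutation p = 0.1, adjusted p = 0.3). Control replicate 1 decided the last contrast: without it the difference was -0.37 (exact permutation p = 0.0167, the smallest its arrangements allow, not adjusted over pairs). A difference in response between Zic5 and Zic1 was therefore not shown over all animals.

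**Figure D3:**
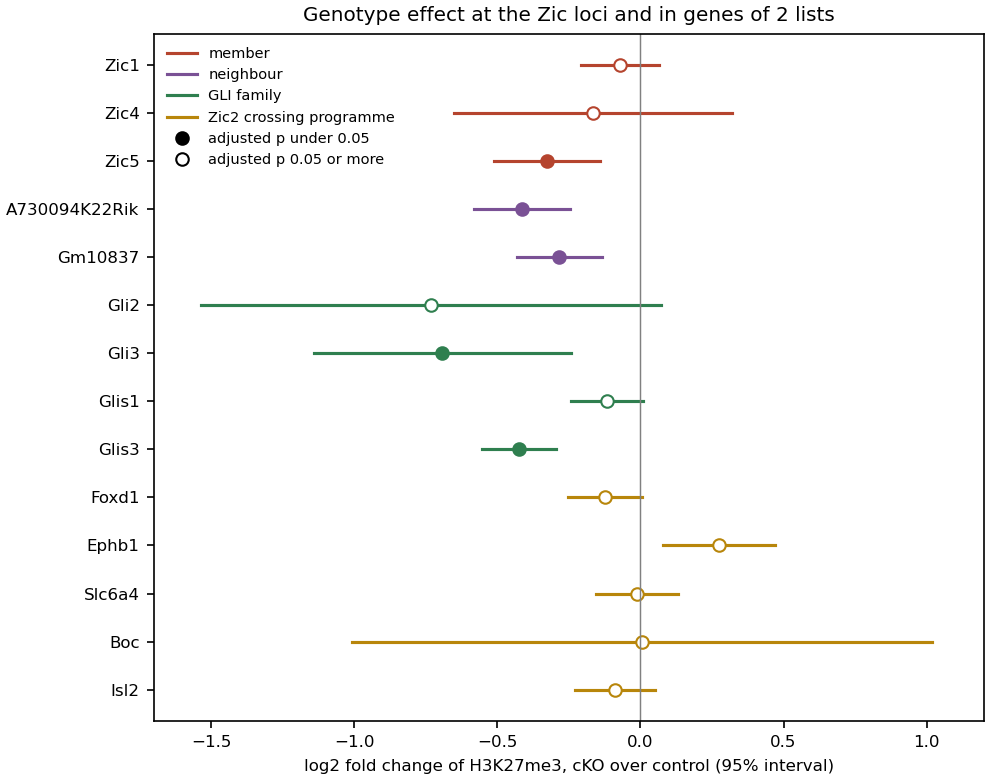
Log2 fold change of H3K27me3, cKO over control (x axis), with 95% intervals. Shown are the member peaks, the 2 neighbouring peaks called lower, and genes of 2 lists with peaks summed per gene. Neighbouring peaks that were not called are not drawn. Filled points passed an adjusted p under 0.05 (edgeR). Zic5 (-0.33), A730094K22Rik (-0.41), Gm10837 (-0.28), Gli3 (-0.69) and Glis3 (-0.42) are filled.

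The relatives of the Zic genes were read as a list. Of the 6 Gli and Glis genes, transcription factors of Hedgehog signalling and their kin, 5 had a peak and 4 were tested. Of these, 2 were lower in cKO and 0 were higher, beside 8.29% of all genes lower. DESeq2 and limma-voom each called 1 lower. The median log2 fold change of the 4 was -0.56, against 0.015 over all genes tested. Gli2 and Gli3 lay at means of only 3.58 and 11.9 CPM over all animals, so this median rests in part on faint peaks. Glis1 and Glis3 lay at 194 and 296 CPM. Glis3, a regulator of pancreatic and thyroid development, had 253 ± 36.2 CPM in cKO and 340 ± 40.0 CPM in controls (SD, n = 5 each) over 8 peaks. Its log2 fold change was -0.42 ± 0.062 (SE; adjusted p by edgeR = 1.52e-04), kept without each animal in turn. Gli3, the main repressor of Hedgehog targets, had 8.88 ± 2.27 CPM in cKO and 15.0 ± 5.29 CPM in controls, a log2 fold change of -0.69 ± 0.21 (adjusted p by edgeR = 0.0474). That call was lost in 15 of 23 alternative settings, among them DESeq2 (0.111), limma-voom (0.0538) and 8 of the 10 fits that left out 1 animal, and the value was -1.44 in batch 1 alone and -0.23 in batch 2 alone. Gli2 had -0.73 ± 0.38 (adjusted p by edgeR = 0.271) and Glis1 -0.12 ± 0.060 (0.253).

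A second list held genes known to act with Zic2, or against its programme, in the choice of ganglion cell axons to cross the midline. Of 7 genes, 6 had a peak and were tested, and none was called with edgeR, DESeq2 or limma-voom, with 2 at an unadjusted p under 0.05 by each tool. Over all 11324 genes, 23.0% were under 0.05 unadjusted with edgeR. Foxd1, a forkhead gene that patterns the temporal retina, had a log2 fold change of -0.12 ± 0.061 (SE; adjusted p by edgeR = 0.239). Ephb1, the guidance receptor of uncrossed axons, had 55.1 ± 13.6 CPM in cKO and 46.0 ± 15.4 CPM in controls, a log2 fold change of 0.27 ± 0.093 (adjusted p by edgeR = 0.0739). Isl2, a factor of crossed ganglion cells, had -0.088, the serotonin transporter gene Slc6a4 -0.013 and the Hedgehog co-receptor gene Boc 0.0043. The median was -0.050, against 0.015 over all genes.

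The deposited table also carries a log2 fold change per peak whose contrast its header does not name. A DESeq2 fit of the 16 libraries, technical duplicates kept apart, with genotype and batch gave the same value for batch 1 over batch 2 within 0.001 in 19034 of 19034 peaks, so those columns hold the contrast of batches and not of genotypes. The deposited test score had the opposite sign to the deposited log2 fold change in all 19034. In the authors' deposited table, Zic1 had 0.25 ± 0.050 (SE; adjusted p = 1.45e-05), and of 14236 peaks with an adjusted p, 11.3% were under 0.05. Zic1 held 2058 CPM in the mean of batch 1 (1952 to 2241 in its 4 animals) and 1710 CPM in batch 2 (1584 to 1810 in its 6 animals), with no overlap. Zic4 and Zic5 had -0.027 and 0.062 in the authors' deposited table (adjusted p = 0.982 and 0.841). That contrast counts the duplicates as separate libraries, so its p-values are too small for a comparison of animals. Tested per animal, a contrast chosen after seeing the data, batch 1 over batch 2 was 0.27 ± 0.067 at Zic1 (SE; adjusted p by edgeR = 0.0111). It was -0.018 at Zic4 and 0.073 at Zic5 (adjusted p by edgeR = 0.983 and 0.722), and 12.3% of 16307 peaks passed. The 2 males of batch 1, cKO replicate 2 at 1952 CPM and control replicate 1 at 2241 CPM, also lay above every animal of batch 2, all of them male. A part of sex in the contrast of batches was not tested. The batch and the use of technical duplicates cannot be told apart.

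**Figure D4:**
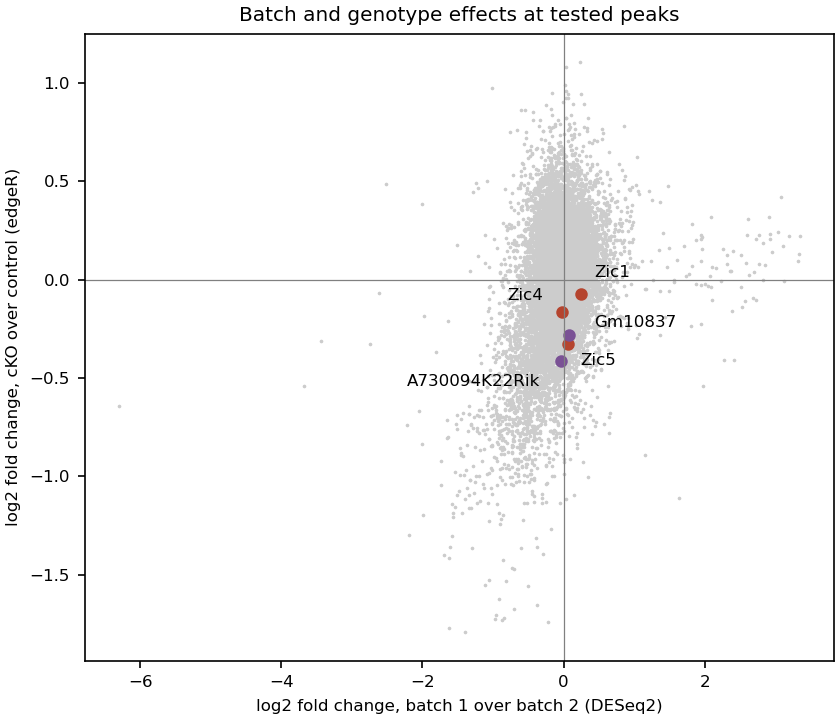
Each point is 1 of 16307 tested peaks, with the log2 fold change of batch 1 over batch 2 (x axis, DESeq2) and of cKO over control (y axis, edgeR). Zic1 lies at 0.25 and -0.071, and Zic5 at 0.062 and -0.33.

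The genes whose H3K27me3 varied most like that of a member were ranked over the 10 animals, with batch means removed, among 4177 genes with a mean of 50 CPM or more. All points share the scaling and the genotype, so the coefficients are descriptions. Among the 3 most alike were Sall3 (r = 0.978) and Gm43103 (0.977) for Zic1, and H2al1j (0.978) and Chst9 (0.962) for Zic5. Coefficients over 0.9 were reached by 50 genes for Zic1 and 77 for Zic5, and between Zic1 and Zic5 r was 0.30. The Zic4 peak varied between animals of a group and batch by 10.2%, less than its counting error of 26.6%, so no likeness is given for it.

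**Figure D5:**
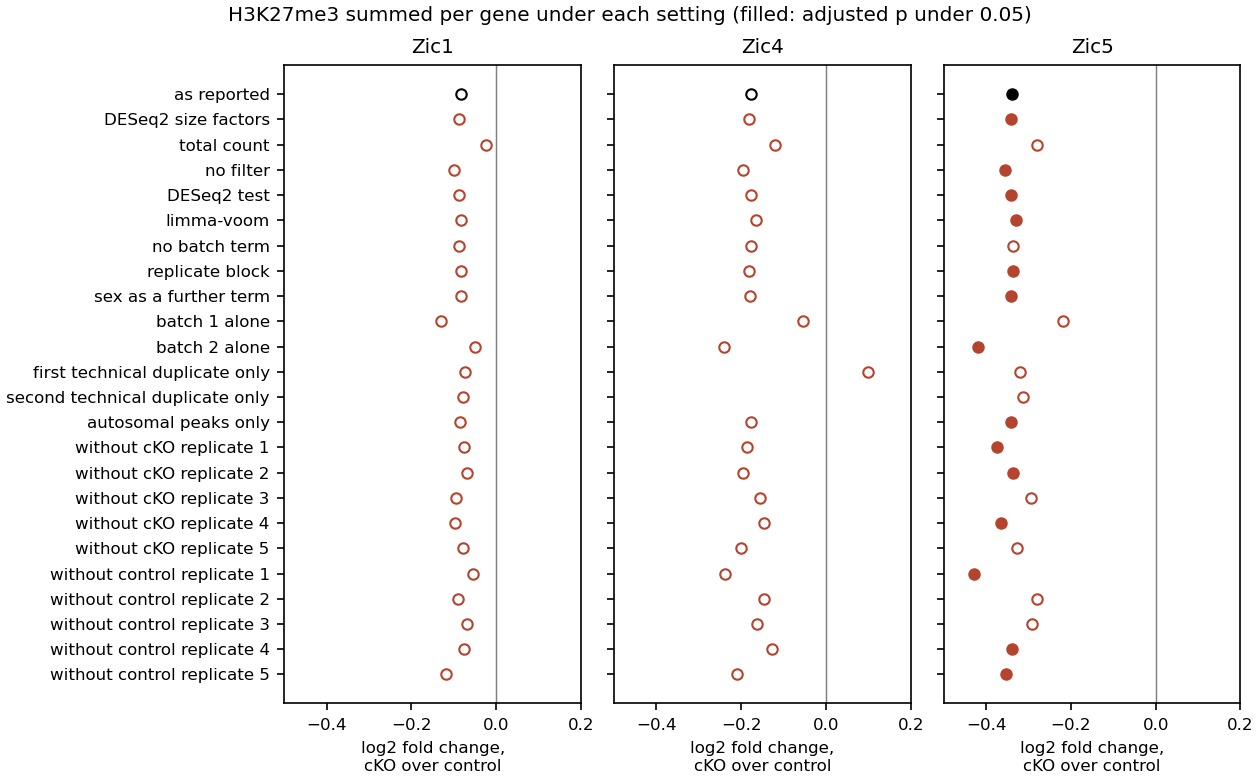
Log2 fold change of cKO over control (x axis) for each member gene under each setting (rows), filled where the edgeR, DESeq2 or limma adjusted p is under 0.05. Zic5 lies between -0.43 and -0.22 throughout, Zic1 between -0.13 and -0.025, and neither Zic1 nor Zic4 is filled in any row.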

How the data were processed

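H3K27me3 CUT&RUN libraries of mouse retina were analysed, 16 of the 22 listed, and the other 6, made with IgG, were not used here. The protocol text gives controls as Jarid2 fl/fl and the driver as Rax-CreERT2, and the sample labels were used. The submitters' processing notes name the build mm10 and, without their roles, MACS2, SAMtools, DESeq2 1.38.1 and Novoalign 4.02.02. The deposited table gives raw counts per peak for 1 peak set. Per the file headers, it also gives the authors' mean signal, log2 fold change, test score, p-value and adjusted p-value, which were used only to find their contrast. For peak calling, read counting and the use of IgG, settings are not given in these sources.

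Technical duplicates did not differ beyond the noise of counting (chi-square over degrees of freedom 0.866 to 0.956, against 1.04 to 2.39 between animals) and were summed, giving 1 sample per animal. Peaks passing filterByExpr (16307), and sums per gene (11324), were tested with edgeR 4.0.16 in R 4.3.3 (TMM, quasi-likelihood, batch as an additive term, Benjamini-Hochberg adjustment over all tested features). Intervals are at 95%. The SE is the fold change divided by the t quantile of its p-value. Scaled CPM used TMM library sizes, and pair differences a prior count of 2. Counting errors cover counting only. DESeq2 1.42.0 and limma 3.58.1 (voom) were alternatives. Steps were tested on simulated data. Figures used matplotlib 3.10.9.

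The members, lists and tests were chosen with earlier results of these data known. Every member peak is named. Neighbours within 100 kb are counted, and named if called. For likeness the 3 genes with the highest r are named. Some genes that these rules and lists name are not reported here, but they were kept in all tests. Gene bodies and promoters came from RefSeq, GRCm38.p6, the assembly of mm10.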

Additional observations from a re-analysis of the deposited data

How the results depend on the processing

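Of 24 alternative settings, Zic1 summed per gene stayed negative and short of the threshold in all (-0.13 to -0.025). Zic5 stayed negative in all 23 that gave a value, and past the threshold in 14 of them. It was -0.28 with the total count, -0.34 without a batch term, -0.22 in batch 1 alone, -0.32 and -0.31 with the first and second duplicate, and -0.43 to -0.28 without each animal in turn. Zic4 turned to 0.10 (peak 0.11) with the first duplicate alone and fell below the filter with the second. Zic1 minus Zic4 was -0.070 in batch 1 alone, 0.16 in batch 2 alone, -0.17 and 0.35 with the first and second duplicate, and 0.021 to 0.15 without each animal in turn. Zic5 minus Gm10837 was 0.061 in batch 1 alone and -0.086 to 0.0024 without each animal in turn. Zic5 minus Zic1 was -0.37 to -0.17 without each animal in turn. The batch difference without each animal in turn was -0.35 to 0.0016 for Zic4 and -0.48 to 0.048 for Zic5. With RefSeq gene bodies Zic5 had no peak, and that pair contrast was not run, since Zic1 and Zic4 share a peak.

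Over all peaks and genes, 335 and 253 were lower without a batch term, and 567 genes with RefSeq gene bodies. In batch 1 alone edgeR called 0 peaks and 0 genes in either direction (1337 peaks lower and 491 higher, and 1063 genes lower and 443 higher, at an unadjusted p under 0.05). Higher peaks and genes numbered 467 and 470 with the total count, 32 and 30 with DESeq2, 24 and 18 without a batch term, and 107 and 79 with the first duplicate. With the second duplicate 116 peaks were higher. Without each animal in turn, 110 to 288 peaks and 91 to 241 genes were higher. The batch difference was called at 0 peaks without the filter (674 at an unadjusted p under 0.05) and at 0 to 6 without each animal in turn. The cause was not tested.

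Deviations from the mean of each group and batch were correlated between same-numbered animals. In batch 2 r was 0.094, 0.014 and 0.036 for replicates 3, 4 and 5, so those animals did not deviate together. In batch 1 r was -0.44 for replicates 1 and 2. With 2 animals per group these are 1 value by construction, and the same-numbered animals were of opposite sex. Whether the numbers pair the samples of batch 1 is therefore not settled by this check. With the replicate block Zic5 was -0.34 (adjusted p by edgeR = 0.0303), Zic1 -0.083 and Zic4 -0.18. Zic4 is limited by its 12 to 20 reads per animal, and Zic1 by the spread between animals.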
